A study of Mus musculus with 18 samples.

Results

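The genes described here are the calponins *Cnn1*, *Cnn2* and *Cnn3* and the smooth-muscle contractile genes *Acta2*, *Actg2*, *Tagln*, *Myl9*, *Tpm2*, *Myh11* and *Lmod1*, 10 of the 51912 genes in the deposited count table. They were picked by gene symbol as calponins and as contractile genes that answer to serum response factor (SRF), because *Cnn1* fell furthest with ethanol. The fall with ethanol is therefore how these genes were chosen and is given below as a description from which no test result is drawn, whereas the comparison of the TRAP fraction with the whole culture played no part in the choice and was tested. All 10 passed the filter of at least 10 counts over the 18 libraries, as did 24495 genes in all.

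RNA was sequenced from primary cortical astrocyte cultures of mice of the line Tg(Aldh1l1-EGFP/Rpl10a)JD130Htz/J on a B6;FVB background, in which the *Aldh1l1* promoter drives an EGFP-tagged ribosomal protein L10a. In translating ribosome affinity purification (TRAP) the tagged ribosomes are pulled down with antibodies to EGFP, so that the immunoprecipitate (IP) holds the ribosome-bound mRNA of cells that express the transgene, and the input holds the RNA of the whole dish. Control dishes and dishes given 50 mM ethanol for 24 h gave 6 IP libraries each, and replicates 4, 5 and 6 of each treatment also gave an input library. All dishes carried the transgene and came from newborn cortices, with males and females pooled in equal numbers, and all were grown to confluence in serum, passaged and moved to serum-free medium before and during the treatment, so that the dishes are separate cultures and not separate animals. In bulk RNA, fewer cells of a type and less RNA per cell cannot be told apart.

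Smooth-muscle cells shorten when myosin pulls on actin filaments, and the members build or tune that machinery. Calponins bind actin filaments and restrain the ATPase of actomyosin, transgelin is a small actin-binding protein of the same family, tropomyosin lies along the filament, the regulatory light chain switches myosin on when it is phosphorylated, and leiomodin nucleates actin filaments. Many of these genes are controlled by SRF, a transcription factor that binds CArG boxes and works with myocardin or with the myocardin-related factors MRTF-A and MRTF-B, which are held back by monomeric actin and released when actin polymerizes. Cultured astrocytes also form actin stress fibers.

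The RefSeq promoters of 7 members (*Cnn1*, *Cnn2*, *Cnn3*, *Acta2*, *Myl9*, *Tpm2* and *Lmod1*) were searched for CArG boxes, from 250 bases before to 50 bases after the start of the gene. A CArG box is CC, then 6 bases that are each A or T, then GG, and a CArG-like box has 1 of those 6 bases replaced by C or G. Of 32851 promoters in the RefSeq table, 1.63% held a CArG box and 9.98% held either kind, on either strand. The windows of *Cnn2*, *Myl9* and *Acta2* held at least 1, and they are shown because SRF control is what the members were grouped by. The sequences are from GRCm38.p6 and are written 5′ to 3′ on the strand of the gene, with the box in capitals. *Cnn2* had a CArG box 56 bases before its start (chr10:79988519-79988578, plus strand), *Myl9* had a CArG box 161 bases (chr2:156775278-156775337, plus strand) and a CArG-like box 99 bases before its start (chr2:156775340-156775399, plus strand), and *Acta2* had CArG-like boxes 84 bases (chr19:34255423-34255482, minus strand) and 34 bases before its start (chr19:34255374-34255432, minus strand).
Cnn2 CArG box: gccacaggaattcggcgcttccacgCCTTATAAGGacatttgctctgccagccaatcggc
Myl9 CArG box: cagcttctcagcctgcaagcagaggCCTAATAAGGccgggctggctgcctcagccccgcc
Myl9 CArG-like box: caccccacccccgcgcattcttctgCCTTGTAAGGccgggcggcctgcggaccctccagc
Acta2 CArG-like box, distal: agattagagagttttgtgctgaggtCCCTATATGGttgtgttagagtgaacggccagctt
Acta2 CArG-like box, proximal: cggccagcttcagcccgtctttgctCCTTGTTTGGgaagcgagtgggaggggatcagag
No box of either kind was found in the windows of *Cnn1*, *Cnn3*, *Tpm2* and *Lmod1*, which says nothing about boxes elsewhere in those genes.

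Each library held between 74239854 and 132810705 read pairs counted on genes, with a median of 84119135. The deposited table was counted without regard to strand, although the kit marks strand and stranded counts were also deposited for each library. This mattered for *Tagln* (chr9:45929619-45936058, minus strand), because an antisense gene on the other strand, listed as AC122273.2, covers 62.4% of its exon bases. Read pairs that fall on both genes are counted for neither when strand is ignored. *Tagln* had 244 to 666 read pairs per library in the table and 57781 to 140871 when counted on its own strand, so that the table held 0.408% to 0.518% of its sense-strand reads. AC122273.2 itself had 14 to 52 read pairs per library in the table and 134 to 391 on its own strand. *Cnn3* (chr3:121426497-121458207, plus strand) was affected less, since the table held 80.1% to 82.4% of its sense-strand reads, beside the antisense gene Gm42928 that covers 17.7% of its exon bases. For the other 8 members the table and the sense-strand counts were nearly equal, and values below are from the table unless the sense strand is named.

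**Figure D1:**
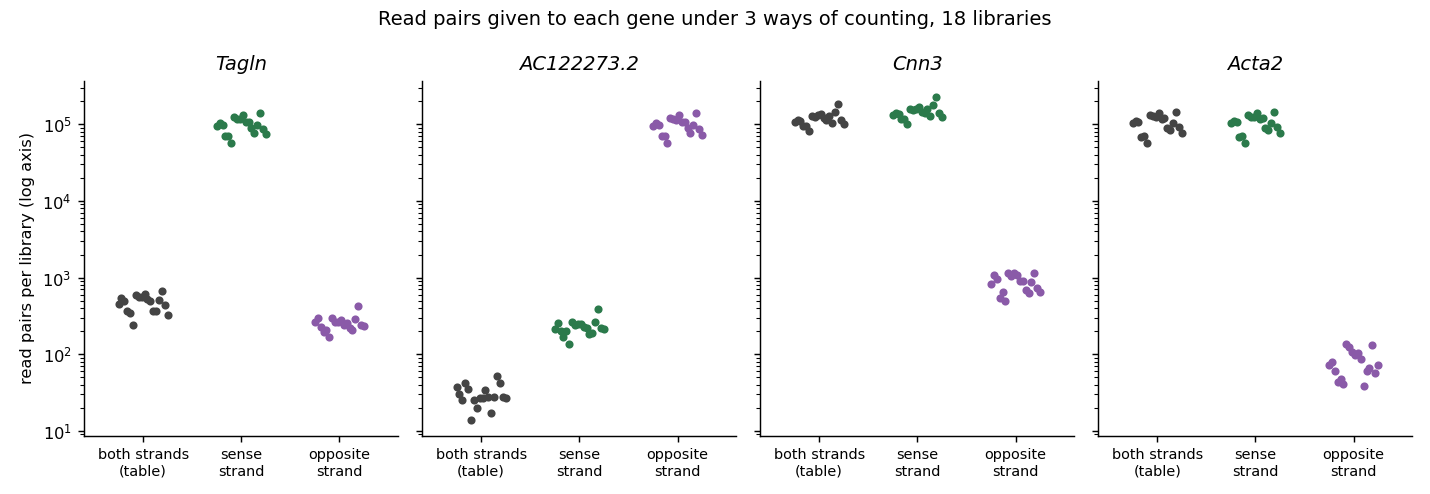
Read pairs per library on a log axis for *Tagln*, its antisense neighbor AC122273.2, *Cnn3* and *Acta2*, counted without strand, on the gene's own strand and on the opposite strand. For *Tagln* the counts without strand (244 to 666) lie far below those on its own strand (57781 to 140871), and for *Acta2* both countings coincide.

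Scaled by transcript length, the members spanned more than 3 orders of magnitude. In control IP libraries, sense-strand levels in fragments per kilobase of the longest transcript and scaled to library size (FPKM) were 882 ± 36.0 (SD, n = 6) for *Tagln* and 839 ± 6.60 for *Cnn3*, whose libraries overlapped. They were followed by *Acta2* at 751 FPKM, *Myl9* at 439 FPKM, *Cnn2* at 299 FPKM, *Cnn1* at 76.8 FPKM, *Tpm2* at 55.2 FPKM and *Lmod1* at 29.6 FPKM, with no overlap of the libraries between neighbors in this order. *Myh11*, the smooth-muscle myosin heavy chain, and *Actg2*, the enteric smooth-muscle actin, stood apart at 0.361 and 0.330 FPKM, with overlapping libraries. From the table without strand, *Tagln* would have stood at 4.32 FPKM. Under ethanol the order of the IP levels began with *Cnn3* at 748 FPKM, above *Tagln* at 616 FPKM with no overlap, and *Cnn1* at 46.9 FPKM overlapped *Tpm2* at 42.6 FPKM. Parts of the order depended on the length used. With all exons of a gene merged as its length, *Acta2* at 696 FPKM stood above *Cnn3* at 611 FPKM in control IP libraries, with no overlap. *Tagln* at 707 FPKM then overlapped *Acta2*, and under ethanol *Cnn1* and *Tpm2* did not overlap. The actins are near-identical in their coding sequence, and reads that map to several of them are not counted, so that the levels of *Acta2* and *Actg2* are uncertain in relation to the other genes.

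**Figure D2:**
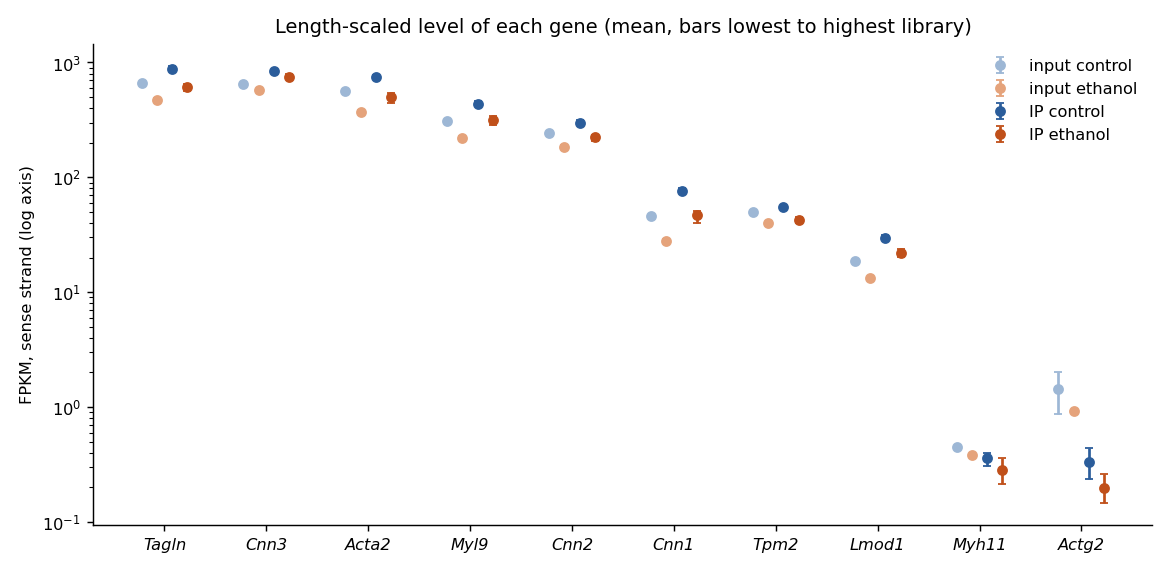
Sense-strand FPKM (longest transcript, log axis) of the 10 members in the 4 groups, with points at the group mean and lines from the lowest to the highest library. *Tagln*, *Cnn3* and *Acta2* lie near the top in every group and the means of *Myh11* and *Actg2* below 2 FPKM.

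The IP was compared with the input over all 18 libraries, with treatment as a term in the model, to see whether the members' mRNA was more or less abundant on the tagged ribosomes than in the whole dish. Of the 10 members, 8 were higher in the IP, where 25.2% of all genes tested were called higher, and 2 were lower, where 25.8% were called lower (edgeR quasi-likelihood test, Benjamini-Hochberg adjusted p below 0.05). The median log2 fold change of the members was 0.36, beside -0.03 over all genes tested. The same 8 and 2 were called from sense-strand counts, where 26.1% and 26.9% of all genes were, and with the dish as a block, where 23.8% and 23.8% were. The 12 IP libraries did not overlap the 6 input libraries for 3 of 10 members (*Cnn3*, *Actg2* and *Lmod1*), as for 25% of all genes.

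*Cnn1* (chr9:22099216-22109630, plus strand), the calponin of differentiated smooth muscle, had 112, 116 and 117 CPM (read counts scaled to the TMM-adjusted size of the library) in the 3 control input libraries and 181.5 at the lowest, 188.7 at the median and 200.8 at the highest among the 6 control IP libraries. Every control IP library was above every control input library. Its log2 difference between IP and input was 0.73 ± 0.0429 (SE; adjusted p = 8.2e-11, edgeR), and 99.1% of the 11066 genes with at least 5 CPM had a lower one. *Lmod1* (chr1:135324807-135368065, plus strand), the smooth-muscle leiomodin, was nearly as far up, with a log2 difference of 0.68 ± 0.0260, and its lowest IP library was above its highest input library. *Myl9* (chr2:156775420-156781658, plus strand), the smooth-muscle regulatory light chain, was higher in the IP by 0.51 ± 0.0308 and *Acta2* (chr19:34241090-34255590, minus strand), smooth-muscle alpha-actin, by 0.43 ± 0.0332 on the log2 scale. The ubiquitous calponins followed, *Cnn3* at 0.36 ± 0.0183 and *Cnn2* (chr10:79988584-79996062, plus strand) at 0.28 ± 0.0223. *Tagln* was higher by 0.40 ± 0.0240 from the sense strand, and *Tpm2* (chr4:43514711-43523765, minus strand), beta-tropomyosin, moved least, by 0.12 ± 0.0211.

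The least expressed members went the other way. *Actg2* (chr6:83512905-83536265, minus strand) had 1.98 ± 0.803 CPM (SD, n = 3) in control input and 0.457 ± 0.125 CPM (n = 6) in control IP libraries, and its log2 difference was -2.15 ± 0.142 (SE), with no overlap between IP and input. *Myh11* (chr16:14194535-14291372, minus strand) had 3.05 CPM in control input and 2.46 CPM in control IP libraries, a log2 difference of -0.37 ± 0.0773 (adjusted p = 3.33e-05, edgeR), and its IP and input libraries overlapped. Both were counted in few read pairs, so their values are less precise than those of the other members. Without a treatment term the calls for *Cnn2*, *Tagln* and *Tpm2* were lost, with log2 differences still at 0.28, 0.34 and 0.12.

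Markers of other cells moved between the fractions as well. Over all genes tested, 25.2% were called higher in the IP and 25.8% lower. Of 14 astrocyte markers 11 were higher in the IP and 1 was lower. *Aldh1l1* itself, whose promoter drives the tag, had a log2 difference of 1.05 ± 0.0216. Of 11 microglia markers 10 were lower, with *Csf1r* at -2.56 ± 0.0452. Of 12 neuron markers 6 were higher and 2 lower, and of 11 oligodendrocyte lineage markers 5 were higher and 4 lower. Of 10 endothelial markers 2 were higher and 6 lower. Of 13 mural cell markers, which smooth-muscle cells and pericytes of vessels would bring, 3 were higher and 5 lower in the IP. *Cspg4*, also an oligodendrocyte precursor marker, had a log2 difference of 1.07 ± 0.0374 and *Pdgfrb* one of -0.54 ± 0.0205. The mural markers *Kcnj8* and *Higd1b* had at most 4 and 3 read pairs in any library and *Gja4* at most 13. Of 14 fibroblast and meningeal markers 4 were higher and 8 lower, with *Dcn* at -1.87 ± 0.0545 and *Col1a1* at -1.62 ± 0.0391. The part of these cells in the members' difference between fractions was not tested.

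With ethanol all 10 members had a lower mean in both fractions. The adjusted p of edgeR fell below 0.05 for 10 of 10 in the IP, where 9.48% of all genes tested were called lower, and for 9 of 10 in the input, where 7.78% were, with *Myh11* as the exception. Since the members were chosen for this fall, nothing is read from those counts. The members' median log2 fold change was -0.46 in the IP and -0.48 in the input, beside medians of 0.0054 and -0.0009 over all genes tested. Control and ethanol libraries did not overlap for 8 members in the IP, where 4.87% of all genes were lower with no overlap, and for 9 in the input, where 13.1% were.

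Among the calponins, *Cnn1* had 181.5, 188.7 and 200.8 CPM at the lowest, median and highest control IP library and 100.2, 118.3 and 126.3 CPM under ethanol. In the input it had 112, 116 and 117 CPM in the control dishes and 66.0, 70.8 and 72.5 CPM in the ethanol dishes. The groups did not overlap in either fraction, and the log2 fold change was -0.70 ± 0.0545 (SE) in the IP and -0.73 ± 0.0270 in the input, a loss of 38.6% and 39.5%. In the input this was the lowest of the 11173 genes with at least 5 CPM. In the IP only *Myh8*, a heavy chain of developing striated muscle, was lower among 10975 genes, at -0.71 ± 0.0546.

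*Cnn2*, a calponin of many cell types, had 732 to 812 CPM with a median of 756 in control IP libraries and 527 to 592 CPM with a median of 577 under ethanol. Its input libraries had 620, 623 and 638 CPM in control and 450, 479 and 490 CPM in ethanol dishes. Neither pair of groups overlapped, and the log2 fold changes were -0.42 ± 0.0265 in the IP and -0.41 ± 0.0223 in the input. *Cnn3*, the acidic calponin, had the smallest fall of all members. On the sense strand it went from 1838, 1854 and 1878 CPM at the lowest, median and highest control IP library to 1615, 1644 and 1747 CPM, again with no overlap, and from the table its log2 fold change was -0.16 ± 0.0224 in the IP and -0.17 ± 0.0216 in the input. The fall of *Cnn1* was the largest of the 3, which is how the members were chosen, and that of *Cnn3*, the most abundant calponin, was the smallest.

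Of the actins, *Acta2* had 1520, 1590 and 1655 CPM at the lowest, median and highest control IP library and 948.5, 1083 and 1147 CPM under ethanol. Its input libraries had 1151, 1187 and 1220 CPM against 754, 792 and 823 CPM. The groups did not overlap, and the log2 fold change was -0.56 ± 0.0399 in the IP and -0.59 ± 0.0218 in the input. *Actg2* had 0.324, 0.446 and 0.604 CPM at the lowest, median and highest control IP library and 0.202, 0.264 and 0.365 CPM under ethanol, and these groups overlapped. In the input it had 1.21, 1.91 and 2.81 CPM in control dishes and 1.27, 1.28 and 1.33 CPM in ethanol dishes. Its input log2 fold change of -0.62 ± 0.159 depended on single libraries, since it was -0.27 without control replicate 5 and -0.88 without control replicate 6.

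*Tagln* on the sense strand had 1345, 1402 and 1491 CPM at the lowest, median and highest control IP library and 909, 991 and 1030 CPM under ethanol. In the input it had 1027, 1054 and 1061 CPM against 724, 771 and 780 CPM. No libraries overlapped between control and ethanol, and the sense-strand log2 fold changes were -0.52 ± 0.0276 in the IP and -0.47 ± 0.0219 in the input. The few read pairs in the table gave -0.51 ± 0.0631 and -0.52 ± 0.0968, similar in size with a wider error.

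Of the myosin and thin-filament genes, *Myl9* went from 488.5, 515.5 and 547.8 CPM at the lowest, median and highest control IP library to 332, 367 and 398 CPM under ethanol, with a log2 fold change of -0.48 ± 0.0376. Its input libraries had 351, 362 and 367 CPM against 249, 263 and 268 CPM, a log2 fold change of -0.47 ± 0.0229. *Lmod1* went from 117, 123 and 131 CPM to 85.1, 90.2 and 98.7 CPM in the IP. Its 3 control input libraries had 76.0, 77.9 and 79.1 CPM and the ethanol ones 55.2, 55.4 and 56.5 CPM. *Lmod1* had log2 fold changes of -0.43 ± 0.0325 in the IP and -0.48 ± 0.0297 in the input, and neither it nor *Myl9* overlapped between control and ethanol. *Tpm2* had 120.4, 124.5 and 128.5 CPM in control and 89.9, 97.3 and 102 CPM in ethanol IP libraries, and 112, 112 and 115 CPM against 90.5, 90.6 and 90.7 CPM in the input. Its groups did not overlap, and its log2 fold changes were -0.37 ± 0.0263 in the IP and -0.32 ± 0.0261 in the input. *Myh11* had 2.09, 2.49 and 2.73 CPM in control IP libraries and 1.49, 1.96 and 2.47 CPM under ethanol, which overlapped. Its log2 fold change was -0.34 ± 0.0966 in the IP and -0.23 ± 0.121 in the input, where 2.989, 3.024 and 3.144 CPM stood against 2.591, 2.599 and 2.628 CPM.

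**Figure D3:**
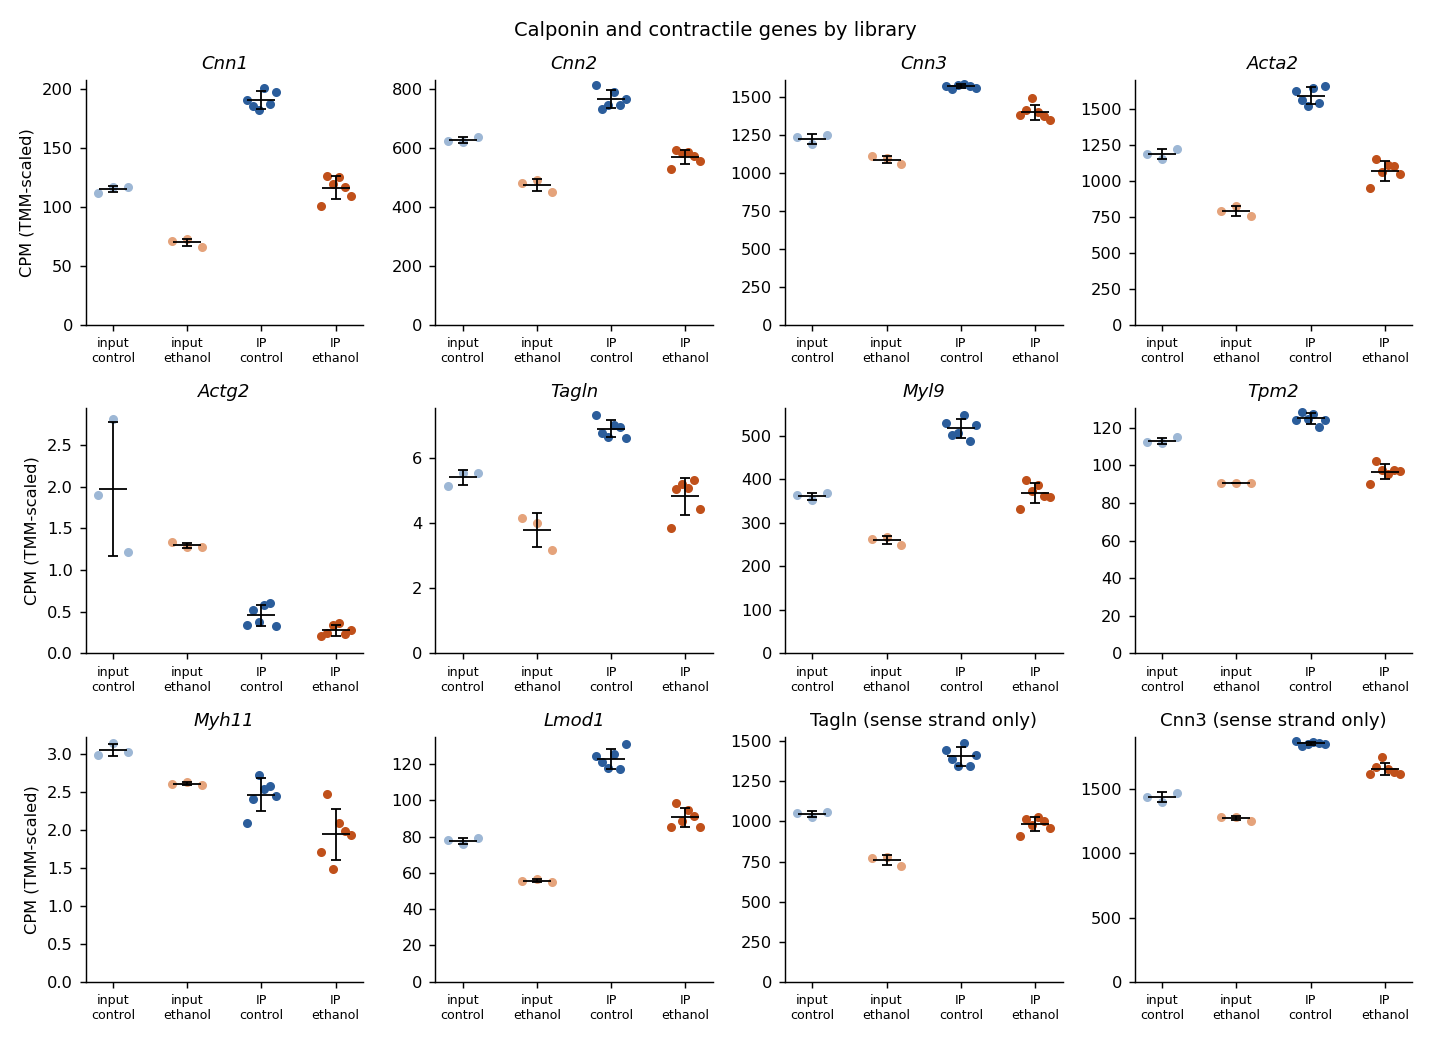
CPM of each member in every library of the 4 groups (input control, input ethanol, IP control, IP ethanol), with the mean and SD, from the table for all 10 and from the sense strand for *Tagln* and *Cnn3*. In the panel of *Cnn1* the ethanol IP libraries lie between 100.2 and 126.3 CPM, all below the control IP libraries at 181.5 CPM and more.

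Added up on the sense strand, the 10 members made 6443 ± 172 CPM (SD, n = 6) in control and 4860 ± 194 CPM in ethanol IP libraries, and 4871 ± 104 CPM (n = 3) and 3706 ± 110 CPM in the input. From the table the IP sums were only 4885 and 3716 CPM, the gap being mostly *Tagln*.

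Whether the fall differed between the fractions was examined with the interaction of ethanol and fraction. It was called for 0 of 10 members by edgeR, DESeq2 and edgeR with the dish as a block, and 0 of 10 had an unadjusted p below 0.05. Over all 24495 genes edgeR called 0 (0%), with 1459 at an unadjusted p below 0.05, DESeq2 called 4, and the fit with the dish as a block called 102 (0.416%). The difference between the fractions in the log2 fold change had a 95% interval (t distribution, 14 residual degrees of freedom) of -0.18 to 0.20 for *Cnn1* and -0.13 to 0.16 for *Acta2*, so that differences of that size were not excluded. For *Actg2* the interval was far wider, -0.71 to 0.55.

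**Figure D4:**
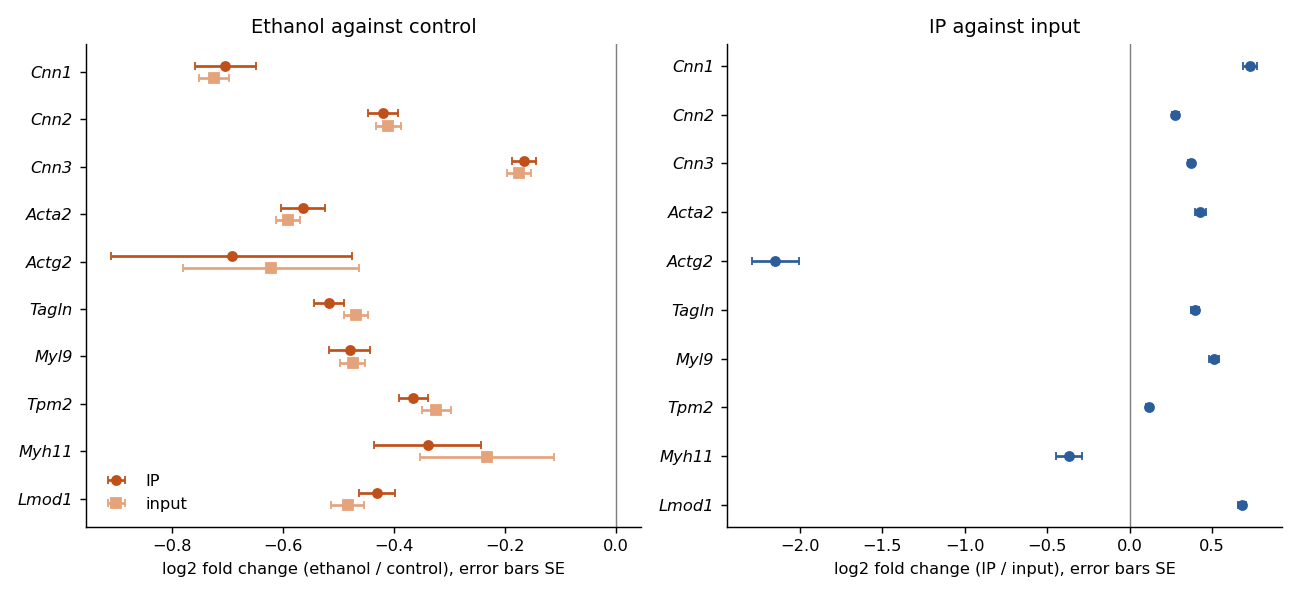
Log2 fold change with SE for the 10 members, for ethanol in the IP and in the input on the left and for IP against input on the right, with *Tagln* and *Cnn3* from the sense strand. The ethanol values of the 2 fractions lie close together for each member, from *Cnn1* near -0.7 to *Cnn3* near -0.2, and on the right only *Myh11* and *Actg2* lie below 0.

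Because the members fell by unequal amounts and belong to gene families, their shares of those families were also compared. All shares below are means of sense-strand FPKM over the family. *Cnn1* made up 6.32% of calponin transcripts in control and 4.61% in ethanol IP libraries, *Cnn2* 24.6% and 21.9%, and *Cnn3* 69.1% and 73.5%. Among actins, *Acta2* went from 25.7% to 21.4% in the IP and from 23.3% to 19.3% in the input, as the cytoplasmic *Actb* went from 57.2% to 60.1% and *Actg1* from 17.1% to 18.5% in the IP. *Myl9* went from 47.5% to 42.2% of the regulatory light chains in the IP and from 41.6% to 36.4% in the input. *Tagln* was 81.4% and 79.0% of the transgelins in control and ethanol IP libraries. *Tpm2* was 6.33% and 6.03% of the tropomyosins, with overlapping libraries, and *Myh11* was 0.236% and 0.209% of the heavy chains, also with overlap, of which the nonmuscle *Myh9* made 62.5% in control IP libraries. *Lmod1* made up 99.97% of the leiomodins in control and 99.95% in ethanol IP libraries. *Cnn1*, *Tpm2* and *Myh11* were thus minor forms of their families, and *Tagln* and *Lmod1* the main ones. *Tpm1*, which is also on the list of other smooth-muscle genes below, made 48.5% of the tropomyosins in control IP libraries. *Myl9* stood above *Myl12a* in control IP libraries, where *Myl12a* made 37.9%, and below it in control input libraries, where *Myl12a* made 42.5%.

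Most of the more abundant members, *Cnn3* less than the others, also varied together among libraries of the same group, a pattern that the mean ethanol difference does not enter. Variation among dishes in the response to ethanol would remain in it. For *Cnn1* the deviations from the group mean in log2 CPM ran from -0.210 to 0.124 in ethanol IP libraries. In control IP libraries they ran from -0.068 to 0.079. After the 4 group means were taken away, Pearson's r of log2 CPM over the 18 libraries was 0.91 between *Cnn1* and *Acta2*, 0.90 between *Cnn1* and *Myl9*, 0.85 between *Cnn1* and *Cnn2* and 0.39 between *Cnn1* and *Cnn3*. Over the 21 pairs of the 7 members with a mean of at least 50 CPM in the table, r ran from 0.21 to 0.91 with a median of 0.71. The pairs with *Cnn3* were the lowest of these, from 0.21 with *Lmod1* to 0.47 with *Cnn2*. On the sense strand those 2 pairs had r of 0.295 and 0.604. Over all 45 pairs of the 10 members it ran from -0.33 to 0.91 with a median of 0.43, and 20 of the 45 pairs were above 0.5. For scale, r with *Cnn1* over 11066 genes with at least 5 CPM had a median of 0.02 and a 95th percentile of 0.52. That background is for *Cnn1* only. IP and input libraries of a dish share that dish, and the median of the 21 pairs was 0.74 over the 12 IP libraries alone and 0.73 over the 6 input libraries alone, the latter chosen after the data were seen. Single libraries stood out in the same direction for many members. Ethanol IP replicate 1 was the lowest of its group for 8 of 10 members, ethanol IP replicate 2 the highest for 7, and ethanol input replicate 6 the lowest for 8. Without ethanol IP replicate 1, the *Cnn1* log2 fold change in the IP was -0.66.

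**Figure D5:**
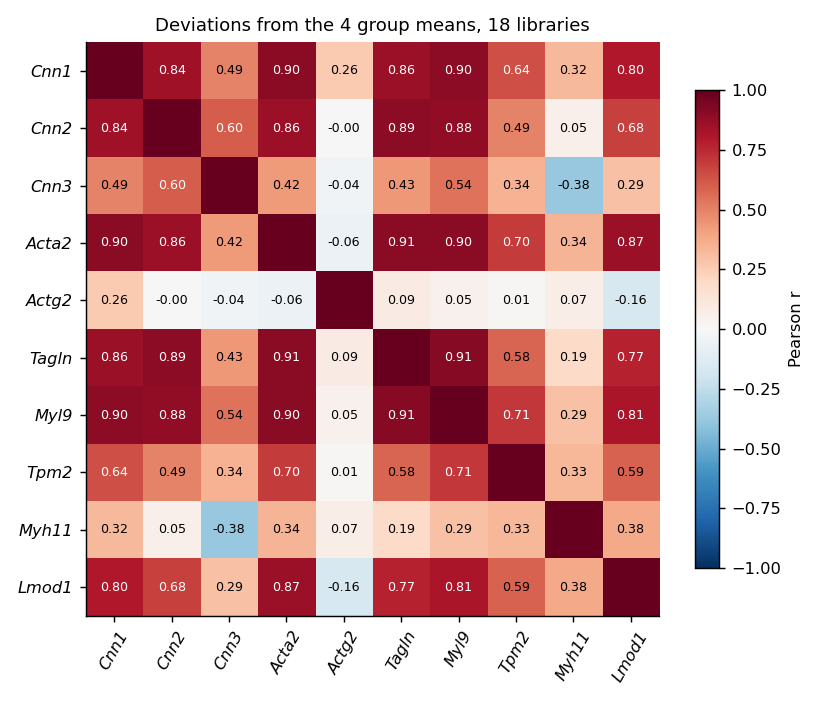
Pearson's r between members of the deviations of log2 CPM from the 4 group means over 18 libraries, from sense-strand counts. *Cnn1*, *Cnn2*, *Acta2*, *Tagln* and *Myl9* have r of 0.84 or more with one another, and *Actg2* and *Myh11*, counted in few read pairs, have low r with most members.

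Across all 18 libraries, groups included, the 5 genes whose log2 CPM followed *Cnn1* most closely among 11066 genes were *Myl9* (r = 0.997), the actin bundler *Fscn1* (0.989), the actin-disassembly factor *Wdr1* (0.988), *Acta2* (0.986) and the angiomotin family gene *Amotl2* (0.985). The median r over all genes was 0.15. *Fscn1* went from 977 ± 30.7 to 778 ± 35.2 CPM with ethanol in the IP and *Wdr1* from 401 ± 7.36 to 330.5 ± 10.0 CPM. With the group means removed, the closest were *Acta2* (0.906), *Myl9* (0.898), *Sema5b* (0.896), *Mpst* (0.890) and *Igsf9* (0.859), where the median over all genes was 0.02. *Sema5b* and *Mpst* had log2 fold changes with ethanol in the IP of 0.07 ± 0.0370 and 0.04 ± 0.0323, neither past the threshold (adjusted p = 0.163 and 0.414, edgeR). *Igsf9* fell, with log2 fold changes of -0.28 ± 0.0538 in the IP and -0.28 ± 0.0757 in the input (adjusted p = 6.52e-05 and 0.003, edgeR).

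Other genes of the SRF pathway, none of them a member, were counted from lists that were drawn up with earlier results of these data known. Of 32 SRF targets of the actin cytoskeleton, 23 fell and 2 rose with ethanol in the IP, where 9.48% of all genes tested were called lower and 11.9% higher, and 23 fell and 2 rose in the input, where 7.78% and 7.21% were. Their median log2 fold change was -0.18 in the IP and -0.16 in the input. *Fhl2*, a LIM-domain cofactor, fell by 0.40 in the IP and 0.44 in the input on the log2 scale, and *Tgfb1i1*, a focal-adhesion protein, fell by 0.39 and 0.41. *Ctgf*, a secreted matricellular protein, rose by 0.18 and 0.16, and *Itgb1*, the beta-1 integrin, by 0.09 and 0.08, a call lost in the input without control replicate 5 or ethanol replicate 6 (0.06 log2 in both). Of 18 immediate early SRF targets, which use ternary complex factors in place of MRTFs, 3 rose and 1 fell in each fraction, small counts beside the same shares of all genes, and the median was 0.09 in both. In the input only 1 rose without control replicate 4 or ethanol replicate 5, and the call of the gene that fell was lost without control replicate 5 or ethanol replicate 6, and in the IP without ethanol replicate 1 or ethanol replicate 6. The antiproliferative gene *Btg2* rose by 0.18 in the IP and 0.21 in the input. The fractions differed for this list too, since 10 of the 18 were lower in the IP than in the input, with *Egr1* at -1.49 ± 0.186 and *Ier2* at -1.28 ± 0.186.

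*Srf* itself fell. It had 78.0 ± 3.04 CPM (SD, n = 6) in control and 64.4 ± 2.29 CPM in ethanol IP libraries, a change of -0.27 ± 0.0282 log2 units (SE) at an adjusted p of 2.23e-11 by edgeR, and 80.1 ± 3.12 CPM (n = 3) and 63.2 ± 3.33 CPM in the input, a log2 fold change of -0.35 ± 0.0288. *Mkl1*, which codes for MRTF-A, had log2 fold changes of 0.04 in the IP and -0.05 in the input and did not pass the threshold (adjusted p = 0.389 and 0.453, edgeR). *Mkl2*, which codes for MRTF-B, rose by 0.08 in the IP (adjusted p = 0.0276, edgeR) and by 0.09 in the input (adjusted p = 0.0413, edgeR), the latter call being lost with DESeq2 (adjusted p = 0.0754) and without control replicate 4, control replicate 5 or ethanol replicate 4 (0.07, 0.08 and 0.06 log2). Myocardin (*Myocd*) was near the lower limit, with group means of 0.0279 to 0.0429 CPM.

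Of 24 other smooth-muscle contractile genes tested, 8 fell and 2 rose in the IP and 9 fell and 3 rose in the input, where 9.48% of all genes were called lower and 11.9% higher in the IP and 7.78% and 7.21% in the input. The tropomyosin *Tpm1* fell by 0.38 and 0.34 on the log2 scale, smoothelin (*Smtn*) fell by 0.33 in the IP, and nexilin (*Nexn*) fell by 0.30 in the input, whereas the integrin *Itga8* rose by 0.24 and 0.28 and the intermediate filament protein *Synm* rose by 0.21 and 0.19. Of 18 genes listed as nonmuscle paralogues of the members, 9 fell and 2 rose in the IP and 10 fell and 2 rose in the input, beside the same shares of all genes. This list is not limited to genes that smooth muscle lacks. The essential light chain *Myl6* fell by 0.36 and 0.32, and the tropomodulins *Tmod1* and *Tmod2* rose by 0.18 and 0.09 in the IP and by 0.23 and 0.09 in the input. The call for *Tmod1* in the input was lost without control replicate 5 or ethanol replicate 5 (0.17 log2 in both) and that for *Tmod2* in the IP without control replicate 1 (0.07 log2). The lists share genes, so that the 3 counts are not independent. *Actb*, *Actg1*, *Myh9*, *Tpm1* and *Tpm4* are both paralogues and SRF actin targets, *Cald1*, *Csrp1* and *Tpm1* are both smooth-muscle genes and SRF actin targets, and *Tpm1* is on all 3 lists. Of 26 striated muscle genes tested, 3 fell in the IP and 2 in the input, near the shares of all genes called lower (9.48% and 7.78%). Their median log2 fold change was -0.20 in the IP and -0.28 in the input, and on the sense strand, where 24 were tested, it was -0.06 in the IP.

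Marker lists of the other cells that such cultures can hold were measured beside the members, and their part in the members' fall was not tested. Over all genes tested, 11.9% were called higher and 9.48% lower in the IP, and 7.21% and 7.78% in the input. Counts of 1 or 2 markers are small beside these shares. Of 13 mural markers, 2 rose in the IP (*Cspg4* by 0.29 and *Notch3* by 0.11 on the log2 scale) and *Cspg4* in the input by 0.23. The call for *Notch3* was lost without control IP replicate 4 or ethanol IP replicate 6 (0.09 and 0.08 log2), and that for *Cspg4* in the input without ethanol replicate 6 (0.15 log2). The summed level of the mural markers was 233 to 250.2 CPM in control and 235 to 269 CPM in ethanol IP libraries, and 252 to 262 CPM and 257 to 261 CPM in the input. Most of this sum was *Pdgfrb*, at 137 CPM, and *Notch3*, at 90.1 CPM in control input libraries. The fibroblast and meningeal sum was 1935 to 1984 CPM in control and 1836 to 2048 CPM in ethanol IP libraries. The oligodendrocyte lineage sum was 403 to 424 CPM and 378 to 411 CPM, and the neuron sum was 220.2 to 235 CPM and 212 to 228 CPM. In the IP the sums of astrocyte, microglia and endothelial markers were higher under ethanol with no overlap. Of all single genes, 5.09% were higher with no overlap in the IP and 14% in the input. The astrocyte sum was 2638 to 2739 CPM in control and 2749 to 2816 CPM in ethanol IP libraries, with 4 of 14 markers called higher and 1 lower, whereas in the input it overlapped, at 1728 to 1791 CPM and 1777 to 1804 CPM, with 4 called higher and 4 lower. The microglia sum was 68.7 to 74.1 CPM and 76.7 to 82.6 CPM, with 2 of 11 called higher, and in the input it was 159.3 to 165.8 CPM and 174 to 184 CPM, with 3 called higher. The endothelial sum, of which *Slco1a4* made most, was 70.8 to 82.4 CPM and 82.7 to 87.0 CPM, with 1 of 10 called higher and 1 lower, and in the input it was 51.2 to 52.6 CPM and 52.9 to 56.1 CPM, also with 1 called higher and 1 lower.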

How the data were processed

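The authors trimmed reads with Trimmomatic and aligned them to GRCm38 with STAR, and SAMtools was also used (versions not given in the sources used here). They deposited read counts per gene, as a table over all libraries and as single files that hold counts without strand and on each strand. The table was the same as the single files' counts without strand, with 0 differences. Of the 51912 genes, 51719 had a position in GENCODE M21. On average 5.50% of read pairs were ambiguous between genes and 3.60% mapped to several places. Counts as deposited were fitted with edgeR 4.0.16 (TMM, robust quasi-likelihood test) in R 4.3.3 on genes with at least 10 counts over the 18 libraries, with Benjamini-Hochberg adjustment over all of them and a threshold of 0.05. IP against input had treatment as a term and all 18 libraries, and ethanol was fitted within each fraction. CPM used TMM-scaled totals, log2 CPM a prior count of 2. The code was tested on simulated data.

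The members, the gene lists and the tests were chosen with earlier results of these data known. From each list up to 2 genes per direction were named, those with the largest called log2 fold change and at least 5 CPM, with *Srf*, *Mkl1*, *Mkl2* and *Myocd* whatever their values, the nonmuscle paralogues in counts and the 5 genes most like *Cnn1*. *Myh8* was named for its rank, and *Actb*, *Actg1* and *Myh9* as parts of their families, after their values were seen. The result of 1 gene list is not reported here. Alternatives were other scalings (DESeq2 1.42.0 size factors, total counts), DESeq2 as the test, no count filter, sense-strand counts, a block for the dish or number, and each library left out. For the FPKM, the alternative length was that of all exons merged. The sense strand together with the block, and the covariation on the sense strand and over 6 input libraries, were added after the data were seen.

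IP and input libraries with the same number and treatment come from the same dish. Their deviations from the group means correlated at a mean of 0.10 (0.03 to 0.21), against -0.02 for other dishes. Control and ethanol libraries share only a number. In no group were any pair of replicates as alike as sampling noise alone would make them (the smallest chi-square divided by its degrees of freedom was 4.06).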

Additional observations from a re-analysis of the deposited data

How the results depend on the processing

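The count of members higher in the IP than in the input was 8, where 25.2% of all genes tested were called higher. It was 5 without a treatment term in the model. *Cnn2*, *Tagln* and *Tpm2* then missed the threshold. No value was reversed. Over the alternatives, 267 of 270 values of the members for IP against input kept their direction and side of the threshold. For ethanol, 209 of 210 values in the IP and 130 of 130 in the input moved by less than the spread, the exception being *Cnn3* at -0.19 in replicates 4 to 6. The spread is the SD of log2 CPM within groups of the same gene, so a gene that varies more can move further. *Actg2* in the input ran from -0.88 to -0.27 and still counted as within it. The count of members lower with ethanol ran from 8 to 10 in the IP and from 8 to 9 in the input. In the fit described above, 9.48% and 7.78% of all genes tested were called lower. Since the members were chosen for this fall, nothing is read from their counts. The count of SRF actin targets that fell ran from 21 to 27 in the IP and from 22 to 25 in the input.

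With the dish as replicate block, 8 members remained higher and 2 lower in the IP than in the input, where 23.8% of all genes were called in each direction, and the interaction called 102 genes (0.416%) and 0 of 10 members. Control and ethanol libraries share only a number. With that number as a block, ethanol in the IP gave 10 of 10 members lower, where 10.4% of all genes were called lower. The members were chosen for this fall, so nothing is read from that count or from the SE of *Cnn1*, 0.0240. Immediate early SRF targets that rose went from 3 to 8 in the IP and from 3 to 7 in the input. With the block, 13.2% and 7.54% of all genes were called higher. The median of the striated muscle genes with ethanol in the IP was -0.20 from the table and -0.06 on the sense strand, where 24 of them were tested. Numbers of control and ethanol IP libraries correlated between -0.15 and 0.40, with a median of 0.06.

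Depth limits *Actg2* and *Myh11*. *Myocd* and the mural markers *Kcnj8*, *Higd1b* and *Gja4* were in the tests, the markers at 0 to 4, 0 to 3 and 0 to 13 read pairs per library.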
